A study of Mus musculus with 11 samples.

Results

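The T cell receptor (TCR) gamma and delta chains are encoded by variable (V), diversity (D, delta only), joining (J) and constant (C) gene segments. Of 57186 gene entries in the count table, 36 were taken by symbol alone, with no use of their values. They were 7 gamma variable (Trgv), 4 gamma joining (Trgj) and 4 gamma constant (Trgc) genes, 6 delta variable (Trdv), 2 diversity (Trdd) and 2 joining (Trdj) segments, the delta constant gene Trdc, and 10 alpha variable genes with a dv name (Trav...-dv), which can serve delta chains as well. The gamma genes lie on mouse chromosome 13 and the delta genes within the TCR alpha locus on chromosome 14.

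Bulk RNA sequencing had been done on cells sorted from untreated 14-day-old mice of the genotype Cd3giCreRosa26stopZsGreen, which all 3 groups carried. The groups were ZsGreen-negative lung group 2 innate lymphoid cells (ILC2; n = 5 libraries), ILC2 with ZsGreen (n = 3), and DN3 cells of the thymus (n = 3), the double-negative precursors that rearrange their TCR genes. In such a reporter, Cre made from Cd3g removes a stop ahead of ZsGreen for good, so ZsGreen marks a cell that expressed Cd3g or had an ancestor that did. Which libraries came from separate animals is not stated in the labels, and the p-values rest on a spread between libraries that may be technical.

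A rearranged TCR gene joins a V to a J segment (through D in delta chains), and its transcript carries V, J and C sequence. Unrearranged segments are also transcribed, as germline transcripts, when their chromatin is open, and counts per gene do not tell the kinds apart. The mouse gamma locus holds 4 clusters, each with its own J and C gene: Trgv7, Trgv4, Trgv6 and Trgv5 lie with Trgj1 and Trgc1, Trgv3 with Trgj3 and Trgc3, Trgv2 with Trgj2 and Trgc2, and Trgv1 with Trgj4 and Trgc4. Trgv5, Trgv6 and Trdv4 are known as the variable genes of the first gamma-delta T cells to leave the fetal thymus, for skin and mucosal sites, and ILC2 are innate cells that need no antigen receptor.

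The total count per library ranged from 4495260 to 17627469, so that 1 count stood for 0.0567 to 0.222 CPM (counts scaled to a common library size). ILC2 and DN3 labels matched the marker genes: Il1rl1, the IL-33 receptor of ILC2, measured 3158 ± 309 CPM (SD, n = 5) in ZsGreen-negative and 2975 ± 393 CPM (SD, n = 3) in ZsGreen-positive ILC2 and 0 counts in DN3, while Rag2 and the pre-TCR gene Ptcra had 0 counts in all 8 lung libraries. Of 23 tested ILC2 identity genes, 20 were lower in DN3 than in each lung group, with 2 higher against ZsGreen-negative and 3 against ZsGreen-positive ILC2. Of 15 DN3 identity genes, 12 and 13 were higher in DN3 and 1 (Hes1) lower. Between the lung groups 3 of 23 ILC2 identity genes were higher with ZsGreen (Klrg1, Il13 and Thy1) and 2 lower (Icos and Calca), and of 11 tested DN3 identity genes 1 was higher (Cd3e) and 1 lower (Hes1). Cd3g itself measured 35.2 ± 4.32, 151 ± 16.5 and 420 ± 11.1 CPM in ZsGreen-negative ILC2, ZsGreen-positive ILC2 and DN3. No lung library shares a batch date with DN3, and in comparisons with DN3 the tissue cannot be told apart from the batch. Of 33 markers of lung epithelial, endothelial and stromal cells, 30 could be tested and 4 (Cldn18, Cldn5, Pdgfrb and Cdh1) were higher in ZsGreen-positive ILC2 by edgeR (11 by DESeq2, 22 by limma voom), and the list's summed level ranged from 549 to 1590 CPM in ZsGreen-negative, 1394 to 3379 in ZsGreen-positive and 227 to 257 in DN3 libraries.

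At the threshold used here, more of the segments were transcribed in DN3 than in either group of lung ILC2. With a group mean of at least 0.5 CPM and at least 1 count in every library as the threshold, 22 of the 36 members were transcribed in DN3, 11 in ZsGreen-negative and 12 in ZsGreen-positive ILC2. The 9 members above it in all 3 groups were Trdc, Trgc1, Trgc2, Trgc4, Trgj1, Trgj4, Trgv1, Trgv2 and Trgv7. Trgv6 passed in ZsGreen-positive ILC2 and DN3. Trdv4 and Trgv5 passed in both lung groups and not in DN3, and 12 members passed in DN3 alone. The threshold asks for a count in every library, of which ZsGreen-negative ILC2 had 5 and each other group 3. Other settings gave 15 to 25 members in DN3, 7 to 11 in ZsGreen-negative and 10 to 17 in ZsGreen-positive ILC2. Members with at least 1 count in any library of the group numbered 29, 21 and 24. In bulk samples, fewer cells with a transcript and less RNA of it per cell cannot be told apart.

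The other 12 members passed in no group. Of these, 6 had 0 counts in all 11 libraries, namely Trdv2-1, Trdv2-2, Trdv3, Trav15d-1-dv6d-1, Trav15d-2-dv6d-2 and Trav16d-dv11. The other 6 (Trgj3, Trdd1 and 4 Trav genes with a dv name) had at most 5 counts in a library. Nearest to the threshold were Trgv6, with a mean of 0.502 CPM in ZsGreen-positive ILC2, and Trdj1 in the same cells, with 0.467 CPM. Summed over all 36 members, the level was 147 ± 16.7 CPM (SD, n = 5) in ZsGreen-negative ILC2, 201 ± 18.8 CPM (SD, n = 3) in ZsGreen-positive ILC2 and 1217 ± 52.6 CPM (SD, n = 3) in DN3.

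**Figure D1:**
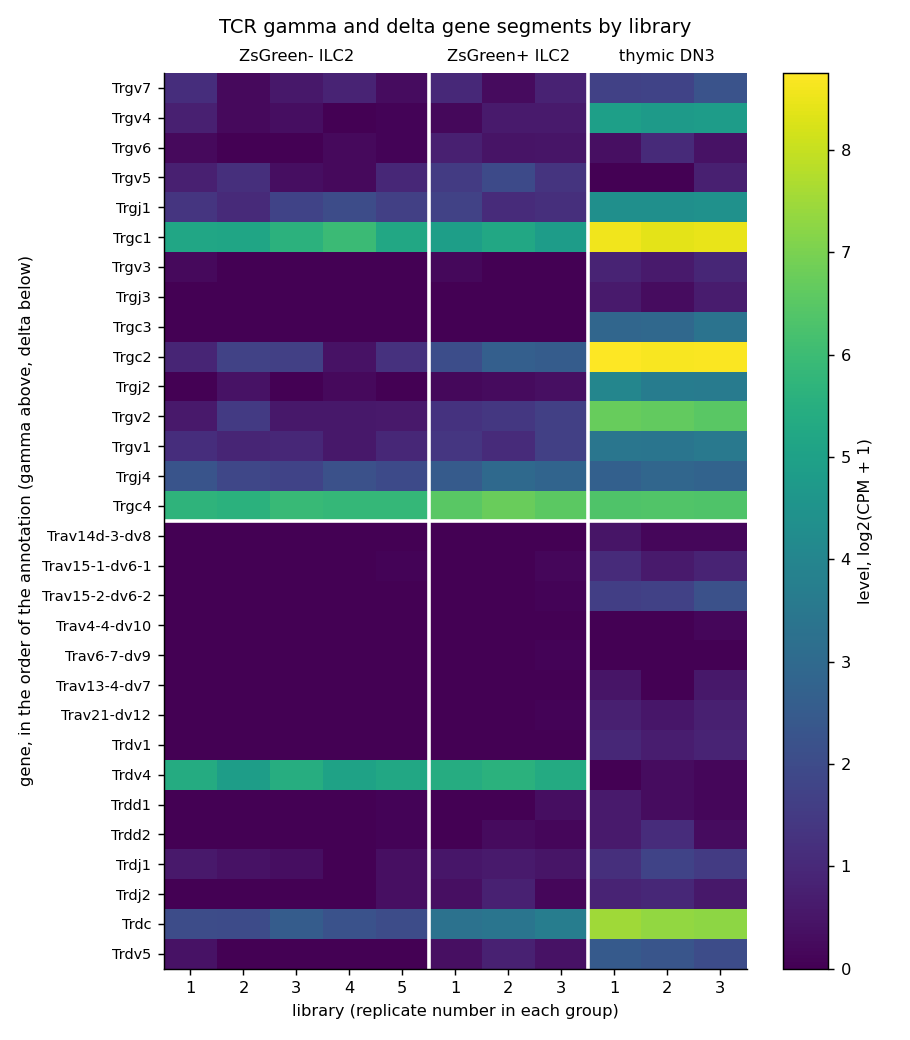
Level of each of the 30 members with a count, as log2(CPM + 1), in each of the 11 libraries (columns, by group and replicate), with gamma genes above and delta genes below the white line in the order of the annotation. Lung columns are brightest in the rows Trgc1, Trgc4 and Trdv4. DN3 columns are brightest in Trgc2, Trgc1, Trdc, Trgv2 and Trgc4 and dark in Trdv4, and most other delta rows are dim in every group.

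Trdv4, a delta variable gene, was read in every lung ILC2 library and nearly missing from DN3. The end of its coding sequence is shown because it holds the conserved cysteine codon (capitals), after which V(D)J joining takes place. The sequence is from GENCODE vM21 on GRCm38, 5′ to 3′, as are all sequences here.
Trdv4: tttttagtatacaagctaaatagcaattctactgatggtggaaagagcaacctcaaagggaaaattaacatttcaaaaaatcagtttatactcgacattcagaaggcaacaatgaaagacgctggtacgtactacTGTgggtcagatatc

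In ZsGreen-negative ILC2 Trdv4 (ENSMUSG00000076867) measured 40.4, 28.5, 43.2, 31.7 and 36.7 CPM in replicates 1 to 5. The ZsGreen-positive libraries held 41.5, 47.0 and 40.1 CPM, and the DN3 libraries 0, 0.214 and 0.116 CPM, from 0, 2 and 1 counts. Lung and DN3 libraries thus stood far apart, while the lung groups overlapped. Summed counts gave a ratio over DN3 of 299.6 (95% counting interval 102.3 to 1455) in ZsGreen-negative and 347.9 (118.8 to 1689) in ZsGreen-positive ILC2. Trdv4 was called lower in DN3 than in ZsGreen-negative ILC2 (log2 fold change −8.06 ± 0.31, SE; edgeR quasi-likelihood with Benjamini-Hochberg (BH) adjustment, adjusted p = 4.52e-16) and than in ZsGreen-positive ILC2 (−8.30 ± 0.32; edgeR BH-adjusted p = 4.16e-16). Between the lung groups the difference of 0.25 ± 0.13 log2 units was not called (edgeR BH-adjusted p = 0.352). These intervals, like all counting intervals here, cover counting error only.

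Trdv4 counts in lung ILC2 outnumbered delta constant counts. For every 100 Trdc counts, the 6 Trdv genes had 1042 ± 199 counts (SD, n = 5) in ZsGreen-negative ILC2, 437 ± 86.1 (SD, n = 3) in ZsGreen-positive ILC2 and 2.93 ± 0.248 (SD, n = 3) in DN3. Without Trdv4 the other Trdv genes had 2 counts in all ZsGreen-negative and 12 in all ZsGreen-positive libraries. Per kilobase of annotated exon, the mean level of Trdv4 was 81.3 CPM in ZsGreen-negative and 96.5 in ZsGreen-positive ILC2, beside 0.916 and 2.62 for Trdc. In DN3 the order was the other way, with 0.248 for Trdv4 and 42.5 for Trdc.

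Every stretch of 50 bases in the Trdv4 transcript is found in no other gene of that annotation (100%), and its closest relative among the members' variable genes, Trdv2-2, shares 52.03% of aligned coding bases. Trdv4 lies in an intron of Gm30275, a gene on the opposite strand whose exons do not overlap it. Gm30275 measured 0.723 ± 0.186 CPM (SD, n = 5) in ZsGreen-negative ILC2, 0.819 ± 0.238 (SD, n = 3) in ZsGreen-positive ILC2 and 2.53 ± 0.413 (SD, n = 3) in DN3. Its part in the Trdv4 counts was not tested.

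**Figure D2:**
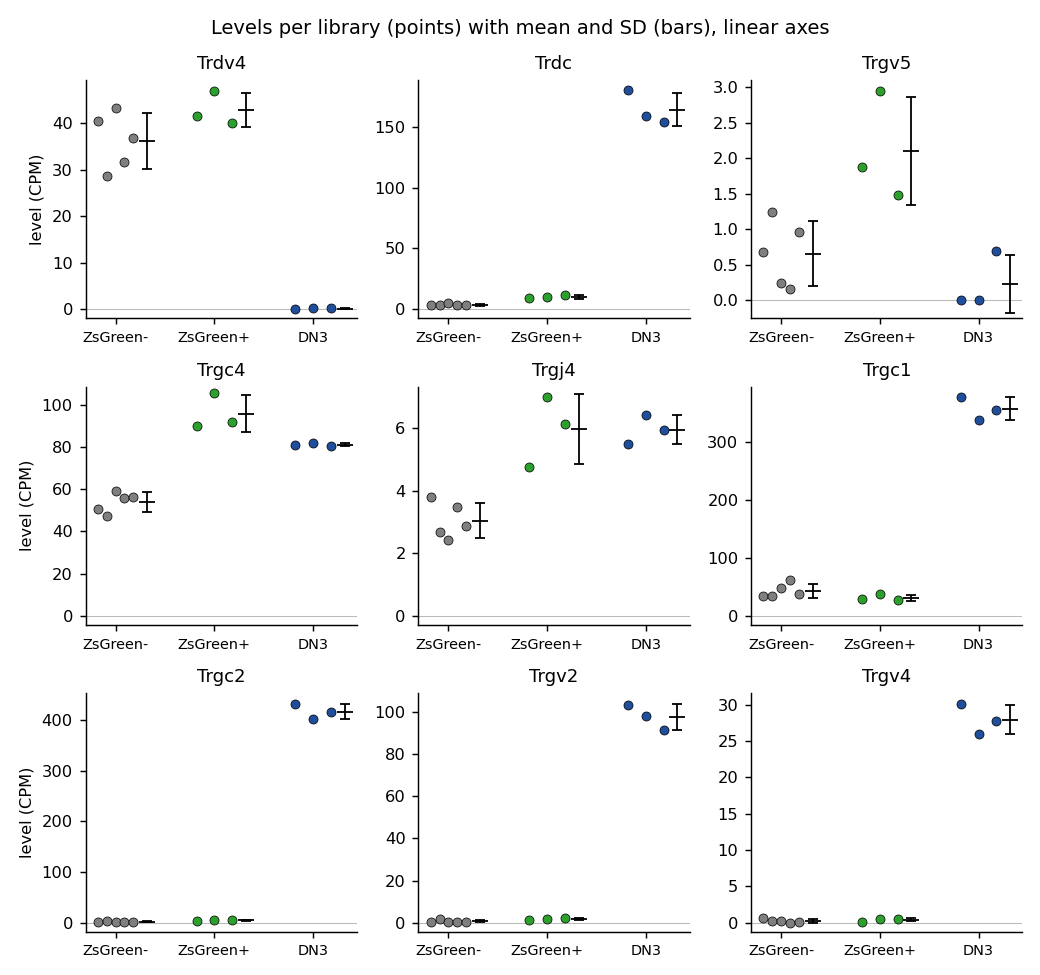
Levels of 9 members in CPM on linear axes that differ between panels, with 1 point per library and the mean and SD beside each group. Trdv4 reads 28.5 to 47.0 CPM in lung and at most 0.214 CPM in DN3, Trgj4 overlaps between ZsGreen-positive ILC2 and DN3, Trgc4 in DN3 lies between the lung groups, and the other panels except Trgv5 are high in DN3.

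Trdc, the only constant gene of delta chains and a defining marker of gamma-delta T cells, was higher in ZsGreen-positive than in ZsGreen-negative ILC2 and highest in DN3. It measured 3.09, 3.03, 4.86, 3.63 and 3.09 CPM in the ZsGreen-negative libraries. ZsGreen-positive libraries held 8.81, 9.58 and 12.0 CPM, and DN3 libraries 180, 159 and 154 CPM. No 2 groups overlapped. Trdc rose 2.91-fold with ZsGreen (log2 fold change 1.54 ± 0.24, SE; edgeR BH-adjusted p = 0.000664), with a log2 fold change of 1.35 ± 0.29 within the 2024 batch (edgeR BH-adjusted p = 0.0164) and a log2 ratio of 1.95 between the single libraries of the 2025 batch. DN3 were 5.58 ± 0.13 log2 units above ZsGreen-negative (edgeR BH-adjusted p = 7.04e-20) and 3.98 ± 0.13 above ZsGreen-positive ILC2 (edgeR BH-adjusted p = 4.34e-17).

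With the mean level of the structural markers as a term, the lung difference of Trdc was 1.04 ± 0.38 log2 units and was not called (edgeR BH-adjusted p = 0.425). Structural markers also move with ZsGreen as given above, and their part in this and the other lung results was not tested. Exons of Trdc overlap exons of the opposite-strand genes Gm43434 and Trdv5, and whether counting used the strand is not given in the sources used here.

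The D and J segments that delta chains need had low counts. Their sequences are shown because they are far shorter than a V or C gene; Trdd1 is given in its shortest annotated form and the others whole.
Trdd1: atggcatat
Trdd2: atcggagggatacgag
Trdj1: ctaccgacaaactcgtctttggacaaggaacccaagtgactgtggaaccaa

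Trdj1, the J segment used by most mouse delta chains, measured 0.516, 0.357, 0.243, 0 and 0.294 CPM in ZsGreen-negative libraries. It reached 0.433, 0.553 and 0.416 CPM in ZsGreen-positive and 1.26, 2.36 and 1.86 CPM in DN3 libraries, which lay above all lung libraries. It was called higher in DN3 against ZsGreen-negative (log2 fold change 2.64 ± 0.53, SE; edgeR BH-adjusted p = 0.000119) and ZsGreen-positive ILC2 (2.00 ± 0.55; edgeR BH-adjusted p = 0.00239). Too low in lung to be tested there, Trdj1 entered through its DN3 counts, so this direction was fixed by the filter on low counts. Per kilobase of annotated exon, the mean level of Trdj1 was 5.53, 9.17 and 35.9 CPM in ZsGreen-negative ILC2, ZsGreen-positive ILC2 and DN3. The values for Trdc were 0.916, 2.62 and 42.5, so Trdj1 was not low beside Trdc in lung when scaled for length. Trdd1 and Trdd2 had at most 11 counts in a library. Segments this short hold few whole reads, so their low counts are no measure of how often they are used.

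Of the other delta variable genes, Trdv5 and Trdv1 passed the threshold in DN3 alone. Trdv5, which lies downstream of Trdc in the opposite orientation and joins by inversion, measured 4.64, 3.96 and 3.15 CPM in DN3. It had 2 counts in 1 of 5 ZsGreen-negative libraries, a ratio of 68.2 (95% counting interval 18.4 to 571) from summed counts, and 0.289, 0.737 and 0.357 CPM in ZsGreen-positive libraries. Both DN3 comparisons of Trdv5 were called (edgeR BH-adjusted p = 5.44e-08 and 2.12e-05), beside its exon overlap with Trdc. Their direction was fixed by the filter on low counts, which Trdv5 passed through its DN3 counts. Trdv1 measured 0.984, 0.643 and 0.815 CPM in DN3 and 0 counts in lung, at least 9.55-fold and 7.91-fold higher in DN3 when 3 counts over the group are set as the floor.

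The 10 Trav genes with a dv name summed to 4.60 ± 1.20 CPM (SD, n = 3) in DN3, and had 1 count over all ZsGreen-negative and 5 over all ZsGreen-positive libraries. Trav15-2-dv6-2 led with 2.11, 2.25 and 3.49 CPM in DN3, against 0 counts in ZsGreen-negative and 1 count in ZsGreen-positive ILC2, and was called in both DN3 comparisons (edgeR BH-adjusted p = 3.79e-07 and 3.71e-06). The direction of these calls was fixed by the filter on low counts, which Trav15-2-dv6-2 passed through its DN3 counts. Its level in DN3 was at least 30.7-fold higher than in ZsGreen-negative ILC2. Trav15-1-dv6-1 followed with 1.12, 0.536 and 0.815 CPM in DN3. Duplicated copies make these counts uncertain: 61.7% of 50-base stretches of Trav15-2-dv6-2 are its own, and none (0%) of those of Trav15d-2-dv6d-2, which was listed at 0.

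The gamma constant genes were read in different proportions in the 3 groups. The starts of their coding sequences show how alike the genes are, with capitals for bases that differ from Trgc1.
Trgc1: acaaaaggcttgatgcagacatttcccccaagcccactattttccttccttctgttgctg
Trgc2: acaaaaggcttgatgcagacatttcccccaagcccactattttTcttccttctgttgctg
Trgc3: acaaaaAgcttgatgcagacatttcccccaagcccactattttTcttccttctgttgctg
Trgc4: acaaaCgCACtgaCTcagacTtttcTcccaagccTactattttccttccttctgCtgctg

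Over these 60 bases Trgc2 differs from Trgc1 at 1 base, Trgc3 at 2 and Trgc4 at 10. Whole coding sequences of Trgc1 and Trgc2 share 94.56% of aligned bases, and those of Trgc1 and Trgc4 share 69.95%. Of the 50-base stretches of each transcript, 65.8% in Trgc1, 74.6% in Trgc2, 63.8% in Trgc3 and 100% in Trgc4 occur in no other gene. Counts of Trgc4 are therefore the surest of the 4, and those of Trgc1, Trgc2 and Trgc3 depend on how reads shared between copies were counted, which is not given in the sources used here.

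Trgc4 (ENSMUSG00000076757) rose 1.77-fold with ZsGreen. ZsGreen-negative libraries held 50.7, 47.3, 59.0, 55.8 and 56.5 CPM, ZsGreen-positive libraries 89.8, 105.8 and 91.9 CPM, and DN3 libraries 81.1, 81.9 and 80.3 CPM. The groups did not overlap, and DN3 stood between the lung groups. The log2 fold change in lung was 0.83 ± 0.10 (SE; edgeR BH-adjusted p = 4.58e-05). It was 0.88 ± 0.11 within the 2024 batch (edgeR BH-adjusted p = 0.000168) and 0.70 between the 2 libraries of the 2025 batch. With the structural score as a term it was 0.77 ± 0.17 (edgeR BH-adjusted p = 0.053). DN3 were called higher than ZsGreen-negative ILC2 (0.59 ± 0.09; edgeR BH-adjusted p = 3.39e-06) and lower than ZsGreen-positive ILC2 (−0.24 ± 0.10; edgeR BH-adjusted p = 0.0327). That last call was kept in 6 of 13 alternatives, with an adjusted p from 0.022 to 0.202.

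Trgc1 was the other constant gene with more than a few CPM in lung ILC2. It measured 34.9, 34.1, 48.3, 60.9 and 36.9 CPM without ZsGreen, 28.7, 37.4 and 27.7 CPM with it and 377, 338 and 354 CPM in DN3. The lung groups overlapped, and the difference of −0.43 ± 0.18 log2 units was not called (edgeR BH-adjusted p = 0.233), except without a filter on low counts (0.0149). DN3 were 3.06 ± 0.16 log2 units above ZsGreen-negative (edgeR BH-adjusted p = 2.04e-10) and 3.53 ± 0.19 above ZsGreen-positive ILC2 (edgeR BH-adjusted p = 4.9e-10).

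Trgc2 was low in lung ILC2 and the highest of the 4 in DN3, at 455 CPM per kilobase against 386 for Trgc1. ZsGreen-negative libraries held 0.860, 2.32, 2.19, 0.330 and 1.397 CPM, ZsGreen-positive libraries 3.18, 5.34 and 4.82 CPM, and DN3 libraries 431, 402 and 415 CPM. All 3 groups were apart. Its log2 fold change with ZsGreen was 1.66 ± 0.42 (SE; edgeR BH-adjusted p = 0.0295), a call kept in 11 of 18 alternatives, with an adjusted p of up to 0.917. The call was lost without ZsGreen-negative replicate 1 or 5 or ZsGreen-positive replicate 2 or 3, with log2 fold changes of 1.46 to 1.62. DN3 were 8.24 ± 0.18 log2 units above ZsGreen-negative (edgeR BH-adjusted p = 6.7e-19) and 6.53 ± 0.18 above ZsGreen-positive ILC2 (edgeR BH-adjusted p = 4.68e-17).

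Trgc3 had 0 counts in all 8 lung libraries. DN3 held 6.46, 6.75 and 8.97 CPM, at least 86.8-fold above ZsGreen-negative and 71.9-fold above ZsGreen-positive ILC2 with the floor of 3 counts over the group. Both comparisons were called (edgeR BH-adjusted p = 5.3e-09 and 3.36e-08). As Trgc3 entered the tests through its DN3 counts alone, this direction was fixed by the filter on low counts.

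Within each library the counts of the 4 constant genes, whose annotated exons have similar lengths for Trgc1 (924 bases), Trgc2 (914) and Trgc4 (985) and a shorter one for Trgc3 (650), were set against their sum. Trgc4 made up 55.3 ± 4.77% (SD, n = 5) in ZsGreen-negative ILC2, 73.0 ± 1.51% (SD, n = 3) in ZsGreen-positive ILC2 and 9.43 ± 0.421% (SD, n = 3) in DN3. Trgc2 made up 1.504 ± 0.949%, 3.36 ± 0.665% and 48.3 ± 0.213%. The share of Trgc1 was 43.2 ± 5.28% in ZsGreen-negative ILC2 and 41.4 ± 0.684% in DN3, with 23.7 ± 1.48% in ZsGreen-positive ILC2 below both. Trgc3 took 0.860 ± 0.166% in DN3. The sums behind these shares were 451 to 1289, 806 to 2091 and 6375 to 7731 counts per library, and no test was made of them.

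**Figure D3:**
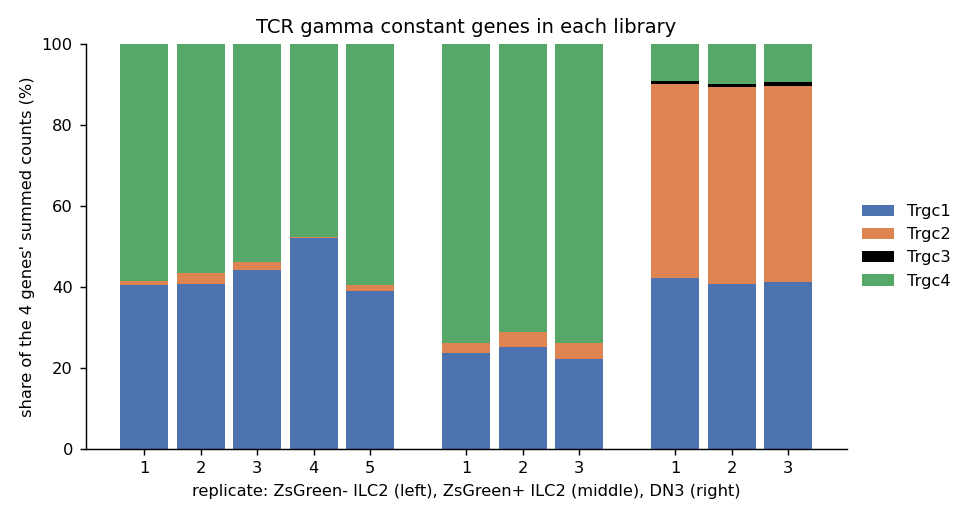
Share of each gamma constant gene in the summed counts of the 4 genes, in percent, for each library (bars; replicate number below). Trgc4 takes 47.7 to 59.6% in ZsGreen-negative, 71.2 to 73.9% in ZsGreen-positive and 9.05 to 9.88% in DN3 libraries, where Trgc2 takes 48.1 to 48.5%.

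Each C gene has a J segment as its partner. The J sequences are shown because the first 3 are nearly alike while Trgj4, the partner of Trgc4, is not; capitals mark bases of Trgj2 and Trgj3 that differ from Trgj1.
Trgj1: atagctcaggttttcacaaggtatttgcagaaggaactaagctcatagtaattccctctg
Trgj2: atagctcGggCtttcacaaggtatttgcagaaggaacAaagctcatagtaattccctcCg
Trgj3: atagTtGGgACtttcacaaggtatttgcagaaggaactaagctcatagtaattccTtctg
Trgj4: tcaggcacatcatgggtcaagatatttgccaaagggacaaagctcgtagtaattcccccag

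Trgj4 measured 3.78, 2.68, 2.43, 3.47 and 2.87 CPM without ZsGreen, 4.77, 7.001 and 6.13 CPM with it and 5.48, 6.43 and 5.94 CPM in DN3. The lung groups did not overlap, and ZsGreen-positive ILC2 overlapped DN3. The lung difference of 0.96 ± 0.27 log2 units passed narrowly (edgeR BH-adjusted p = 0.0476) and was kept in 7 of 18 alternatives, with an adjusted p of up to 0.729. Leaving out any 1 library other than ZsGreen-positive replicate 1 ended the call, with log2 fold changes of 0.82 to 1.04. DN3 were 0.96 ± 0.24 above ZsGreen-negative (edgeR BH-adjusted p = 0.000969) and 0.00 ± 0.25 from ZsGreen-positive ILC2 (edgeR BH-adjusted p = 0.99).

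Trgj1, the partner of Trgc1, measured 1.55, 1.07, 2.43, 3.14 and 2.13 CPM without ZsGreen, 2.31, 1.11 and 1.25 CPM with it and 19.4, 19.5 and 20.6 CPM in DN3. The lung groups overlapped, with a log2 fold change of −0.41 ± 0.43 (SE; edgeR BH-adjusted p = 0.733). Trgj2, the partner of Trgc2, measured 15.0, 11.8 and 11.4 CPM in DN3 and had 3 counts over all ZsGreen-negative and 7 over all ZsGreen-positive libraries. Both J segments were called higher in DN3, Trgj1 by 3.25 ± 0.24 and 3.70 ± 0.29 log2 units (edgeR BH-adjusted p = 5.03e-11 and 1.69e-10) and Trgj2 in both fits (edgeR BH-adjusted p = 7.06e-12 and 2.72e-10), with a ratio of 147.6 (95% counting interval 50.1 to 719.8) over ZsGreen-negative ILC2. For Trgj2, which entered the tests through its DN3 counts, the direction was fixed by the filter on low counts.

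The gamma variable genes Trgv2, Trgv4, Trgv1 and Trgv7 were higher in DN3 than in either lung group. Trgv2 measured 103, 98.4 and 91.3 CPM in DN3, against 0.516, 1.78, 0.486, 0.495 and 0.515 CPM without ZsGreen and 1.44, 1.66 and 2.14 CPM with it. The lung groups overlapped through ZsGreen-negative replicate 2 alone, and the lung difference of 1.28 ± 0.51 log2 units was not called (edgeR BH-adjusted p = 0.192). It was called in the fit over all 11 libraries without a batch term (log2 fold change 1.36; edgeR BH-adjusted p = 0.0212). DN3 were 7.06 ± 0.20 and 5.71 ± 0.20 log2 units above the lung groups (edgeR BH-adjusted p = 1.6e-18 and 1.1e-16).

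Trgv4, a variable gene of many interleukin-17-producing and other adult gamma-delta T cells, measured 30.1, 26.04 and 27.7 CPM in DN3. It had 7 counts over all ZsGreen-negative and 13 over all ZsGreen-positive libraries, with at most 0.688 CPM in a lung library. DN3 were 7.01 ± 0.34 log2 units above ZsGreen-negative (edgeR BH-adjusted p = 2.63e-14) and 5.94 ± 0.35 above ZsGreen-positive ILC2 (edgeR BH-adjusted p = 1.07e-12). Trgv4 passed the filter on low counts through its DN3 counts, which fixed this direction. Exons of Trgv4 overlap exons of the opposite-strand gene Gm31887, which measured at most 2.95 CPM in any library.

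Trgv1, the variable gene of the Trgc4 cluster, measured 1.20, 0.892, 0.971, 0.495 and 0.956 CPM without ZsGreen, 1.59, 1.11 and 2.14 CPM with it and 9.84, 9.54 and 10.7 CPM in DN3. Trgv7, found on many intestinal gamma-delta T cells, measured 1.20, 0.178, 0.486, 0.825 and 0.221 CPM, then 1.01, 0.184 and 0.773 CPM, then 2.25, 2.36 and 3.73 CPM in the same order. The lung groups overlapped for both genes, and DN3 lay above both groups. Trgv1 was called higher in DN3 by 3.45 ± 0.29 and 2.53 ± 0.30 log2 units (edgeR BH-adjusted p = 3.81e-10 and 1.25e-07) and Trgv7 by 2.34 ± 0.51 and 1.97 ± 0.54 (edgeR BH-adjusted p = 0.000273 and 0.00246). Neither was tested between the lung groups, where the filter on low counts removed them. In the DN3 comparisons both entered through their DN3 counts, so that direction was fixed by the filter. Trgv1 shares 94.86% of aligned coding bases with Trgv2, and 75.4% of its 50-base stretches occur in no other gene. Its counts therefore depend on how shared reads were counted.

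Trgv5, the variable gene of skin gamma-delta T cells, passed the threshold, like Trdv4, in lung groups alone. Its levels were 0.688, 1.25, 0.243, 0.165 and 0.956 CPM without ZsGreen, 1.88, 2.95 and 1.49 CPM with it, and 0, 0 and 0.699 CPM in DN3, where all 6 counts came from replicate 3. The lung groups did not overlap. Trgv6, its fetal neighbour, measured 0.172, 0, 0, 0.165 and 0.0735 CPM, then 0.722, 0.368 and 0.416 CPM, then 0.281, 1.07 and 0.349 CPM, so that ZsGreen-positive libraries again lay above all ZsGreen-negative ones. Neither gene had the counts for the tests. Without the filter, the lung differences were not called (edgeR BH-adjusted p = 0.0864 for Trgv5 and 0.33 for Trgv6), and neither was that of Trgv5 between DN3 and ZsGreen-negative ILC2 (log2 fold change −1.54 ± 0.73, SE; edgeR BH-adjusted p = 0.0728). Against ZsGreen-positive ILC2, Trgv5 was lower in DN3 (−3.04 ± 0.70; edgeR BH-adjusted p = 4.52e-05). With the filter and 1 DN3 library left out, Trgv5 entered through its ZsGreen-positive counts, which fixed the direction against ZsGreen-positive ILC2. Without DN3 replicate 1, 2 or 3 the fitted values against ZsGreen-negative ILC2 were −1.03, −0.89 and −5.55, only the last called by edgeR. Against ZsGreen-positive ILC2 they were −2.52, −2.38 and −7.04, all called by edgeR. Without replicate 3, Trgv5 has 0 counts left in DN3, and those values give no bound on the fold.

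Summed over the libraries of a group, Trgv genes had 112 counts in ZsGreen-negative ILC2, 211 in ZsGreen-positive ILC2 and 3494 in DN3. Trgv2 made up 69.8% of them in DN3 (95% exact binomial interval 68.2 to 71.3%) and Trgv4 19.9% (18.6 to 21.2%). In ZsGreen-positive ILC2 the counts were spread, with 26.1% for Trgv2 (20.3 to 32.5%), 25.6% for Trgv5 (19.9 to 32.04%) and 25.1% for Trgv1 (19.4 to 31.5%). The ZsGreen-negative shares were 22.3% (15.0 to 31.2%), 23.2% (15.8 to 32.1%) and 28.6% (20.4 to 37.9%) for the same genes. Trgv5 took 0.172% in DN3 (0.0630 to 0.373%). The intervals of each Trgv gene overlapped between the lung groups. They leave out the spread between libraries, and a difference in these shares was not tested. Shares of Trgv1, Trgv2 and Trgv3 also depend on how reads shared between these genes were counted.

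**Figure D4:**
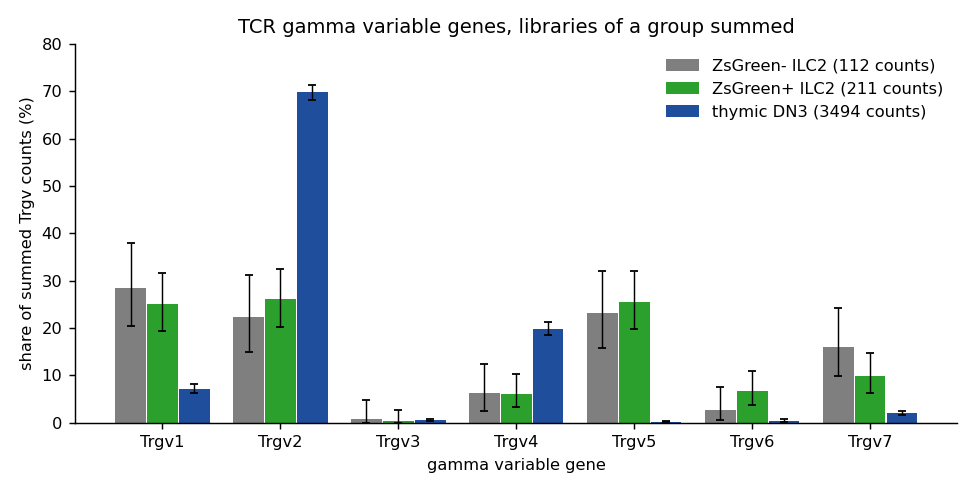
Share of each Trgv gene in the summed Trgv counts of a group, in percent (bars), with 95% exact binomial intervals that cover counting error only. Trgv2 reaches 69.8% in DN3 and no gene exceeds 28.6% in either lung group.

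Variable counts were also set against constant counts of the same cluster. In the Trgc4 cluster, Trgv1 had 1.70 ± 0.536 counts per 100 Trgc4 counts (SD, n = 5) in ZsGreen-negative ILC2, 1.72 ± 0.644 (SD, n = 3) in ZsGreen-positive ILC2 and 12.4 ± 0.878 (SD, n = 3) in DN3. Trgj4 had 5.71 ± 1.25, 6.20 ± 0.773 and 7.34 ± 0.550 counts per 100. Counts assigned to Trgv1 were thus fewer per Trgc4 count in lung than in DN3. Trgv2, which is nearly alike in sequence, had 2438 counts in DN3 beside 251 of Trgv1. The part of reads shared with Trgv2 in the Trgv1 counts was not tested. In the Trgc1 cluster the 4 Trgv genes had 4.02 ± 2.46, 11.8 ± 1.13 and 8.85 ± 0.291 counts per 100 Trgc1 counts. In the Trgc2 cluster the value was 23.5 ± 1.31 for DN3, and 69.2 ± 49.8 and 40.3 ± 8.05 in lung, where it rests on 25 and 55 Trgv2 counts.

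Counted over the tests, ZsGreen-positive ILC2 had more of 4 members than ZsGreen-negative ILC2: Trgc4, Trdc, Trgc2 and Trgj4. Those were 4 of the 8 members with enough counts to be tested, against 2.32% called higher among 13771 genes tested, and 4.6% in either direction. By edgeR 0 members were called lower, against 2.29% of genes (1 at an unadjusted p under 0.05; 0 by DESeq2 and 0 by limma voom). The same 4 did not overlap between the lung groups, all higher, where 10.2% of all genes did not, 5.2% being higher and 4.98% lower. The median log2 fold change was 0.89 over the 8 members and −0.01 over all genes tested. In the 2024 batch alone 2 members were called, Trdc and Trgc4, and with the structural score as a term 0 were by edgeR (2 at an unadjusted p under 0.05), with wider SEs for all 8. Over all genes, that term left 13 called higher and 43 lower, in place of 319 and 315.

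In DN3 15 of 16 tested members were higher than in ZsGreen-negative ILC2, against 35.5% of the 15132 genes tested, and 1 was lower (Trdv4), against 41.2%, or 76.7% in either direction. Against ZsGreen-positive ILC2 13 of 16 were higher, beside 34.8% of all genes, and 2 lower (Trdv4 and Trgc4), beside 40.3%, or 75.1% in either direction. Libraries did not overlap for 16 and 15 members, against 73.9% of all genes (34.7% higher and 39.2% lower in DN3) and 78.2% (36.8% and 41.3%). Of these 16 members, 8 had too few counts in lung to be tested between the lung groups and entered through their DN3 counts, so their direction was fixed by the filter. Of the other 8, 7 were higher in DN3 and 1 lower against ZsGreen-negative ILC2, and 5 were higher and 2 lower against ZsGreen-positive ILC2. Both comparisons share the DN3 libraries.

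**Figure D5:**
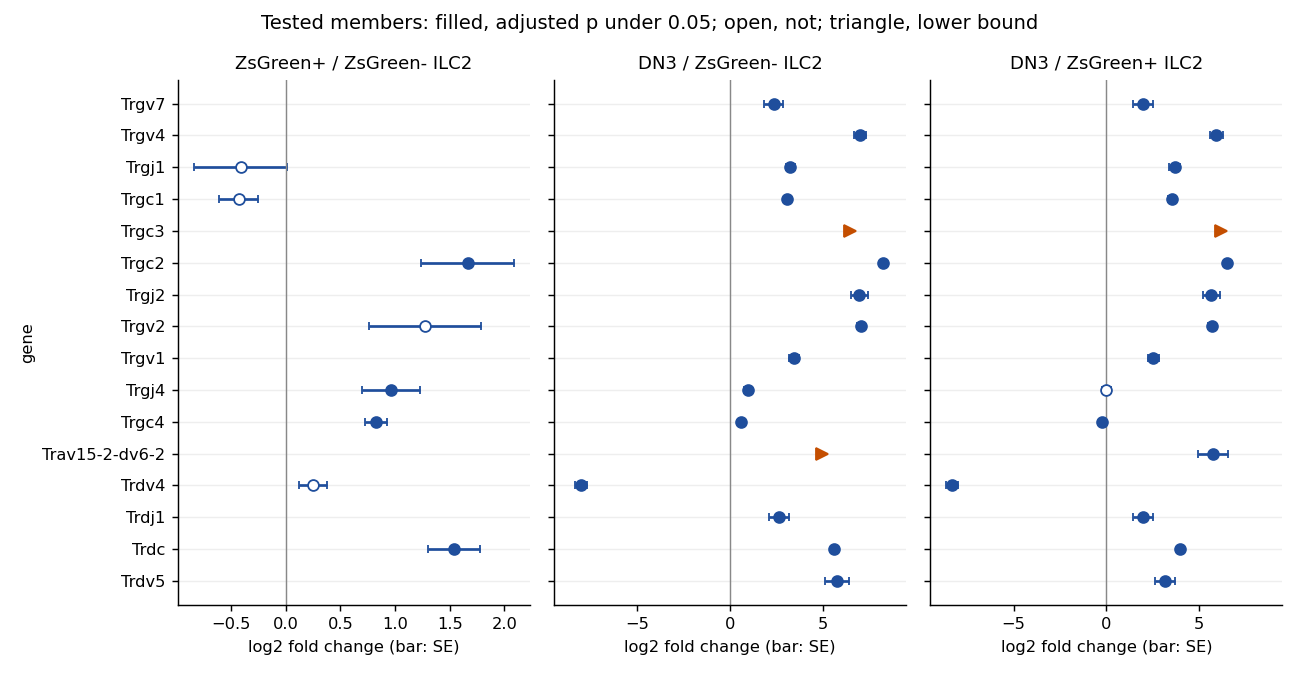
Log2 fold change with SE of each tested member in the lung comparison (left, own axis) and in DN3 against each lung group (middle and right), by edgeR. Filled points passed an adjusted p of 0.05, open points did not, and triangles are lower bounds for members with 0 counts in the lung group; Trdv4 lies at −8.06 and −8.30 while the other DN3 points lie between −0.24 and 8.24.

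Genes around the TCR were counted beside the members. For all lists here, the share over all tested genes in lung was 2.32% higher and 2.29% lower with ZsGreen. In DN3 35.5% of all genes were higher and 41.2% lower than in ZsGreen-negative ILC2, and 34.8% and 40.3% against ZsGreen-positive ILC2. Of the 4 CD3 chains and Fcer1g, which carry TCR signals, 4 of 5 were higher in ZsGreen-positive ILC2 (median log2 fold change 2.00) and 4 of 5 in DN3 against each lung group. Fcer1g was lower in DN3 than in ZsGreen-positive ILC2 (log2 fold change −1.71 ± 0.64, SE; edgeR BH-adjusted p = 0.0212). This list includes Cd3g, the gene that drives the reporter. Cd3e measured 1.60 ± 0.560 CPM (SD, n = 5), 22.8 ± 4.06 (SD, n = 3) and 320 ± 12.4 CPM (SD, n = 3) in ZsGreen-negative ILC2, ZsGreen-positive ILC2 and DN3. Its log2 fold change with ZsGreen was 3.85 ± 0.24 (SE; edgeR BH-adjusted p = 3e-08), while the highest among the tested members was 1.66 for Trgc2.

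Of 16 genes of V(D)J recombination and the pre-TCR, 12 were tested in lung and 0 were called by edgeR (1 higher and 0 lower at an unadjusted p under 0.05), by DESeq2 or by limma voom. In DN3 9 were higher and 3 lower than in ZsGreen-negative ILC2 (all genes: 35.5% and 41.2%), and 10 and 3 against ZsGreen-positive ILC2 (34.8% and 40.3%). The recombinase gene Rag1 measured 1261 ± 47.3 CPM (SD, n = 3) in DN3 against 8 and 3 counts over all ZsGreen-negative and ZsGreen-positive libraries. Dntt, the terminal transferase that adds bases at V(D)J junctions, measured 1076 ± 35.6 CPM in DN3 against 2 counts and 0 counts. Polm, a polymerase that works in end joining, went the other way, with 49.7 ± 3.15 and 58.7 ± 4.41 CPM in lung and 4.91 ± 0.649 CPM in DN3.

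Regulators of the gamma and delta loci split in both directions. Of 24 tested in lung, 1 was higher with ZsGreen and 2 lower. Runx2, a Runt factor, stood at 81.9 ± 6.28 and 106 ± 8.68 CPM (edgeR BH-adjusted p = 0.0275), Hes1, a Notch target, at 155 ± 7.58 and 89.2 ± 10.1 CPM (edgeR BH-adjusted p = 2.17e-05) and the HMG-box factor Lef1 at 33.6 ± 2.78 and 17.99 ± 2.20 CPM (edgeR BH-adjusted p = 0.000272). In DN3 13 of 24 were higher and 11 lower than in ZsGreen-negative ILC2, and 13 and 10 against ZsGreen-positive ILC2. All tested genes also went both ways, with 35.5% higher and 41.2% lower in the first comparison and 34.8% and 40.3% in the second. Il7r measured 1366 ± 59.9, 1227 ± 24.9 and 129 ± 2.72 CPM in ZsGreen-negative ILC2, ZsGreen-positive ILC2 and DN3. Its signal through STAT5 is known to open the gamma locus. The STAT5 genes Stat5a and Stat5b went the other way and were called higher in DN3 than in each lung group by edgeR. Whether this signal bears on the levels of the gamma segments was not tested.

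A list of 26 symbols for the gamma-delta T cell programme had 24 in the count table. In lung 17 were tested, of which 2 were higher with ZsGreen and 2 lower. Scart1, a scavenger receptor family gene with related copies, rose from 5.94 ± 1.30 to 47.8 ± 15.0 CPM (edgeR BH-adjusted p = 7.04e-08) and Etv5, an Ets factor, from 10.8 ± 3.30 to 18.1 ± 1.70 CPM (edgeR BH-adjusted p = 0.0463). Sox4, an HMG-box factor, dropped with ZsGreen, at 33.9 ± 5.02 and 11.2 ± 0.575 CPM (edgeR BH-adjusted p = 1.87e-06) and so did the cytokine gene Il17f, at 17.4 ± 4.29 and 8.34 ± 1.52 CPM (edgeR BH-adjusted p = 0.00956). In DN3 7 of 18 were higher and 11 lower than in ZsGreen-negative ILC2 (all genes: 35.5% and 41.2%). Against ZsGreen-positive ILC2 6 were higher and 12 lower (34.8% and 40.3%). Cd44, Maf, Nr4a1 and Zbtb7b were among the lower ones in both comparisons. Sox4, Sox13, Cd27, Scart2, Blk and Etv5 were among the higher ones in both.

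Of 14 alpha-beta T cell markers, 11 were tested in lung and 0 were called by edgeR (2 higher and 3 lower at an unadjusted p under 0.05), by DESeq2 or by limma voom. Trac, the TCR alpha constant gene, which lies downstream of Trdc, measured 2.07 ± 0.621, 2.85 ± 1.76 and 1.95 ± 0.492 CPM in ZsGreen-negative ILC2, ZsGreen-positive ILC2 and DN3, so it was low in all groups. In DN3 11 of 14 of these markers were higher and 1, Zap70, lower than in each lung group. Over all genes, 35.5% were higher and 41.2% lower against ZsGreen-negative ILC2, and 34.8% and 40.3% against ZsGreen-positive ILC2. Among markers of other cells, 0 of 4 tested NK and ILC1 genes and 0 of 8 macrophage and dendritic genes were called by edgeR. At an unadjusted p under 0.05, 1 and 2 of these were higher and 0 lower. DESeq2 and limma voom each called 0 of the NK and ILC1 genes and 1 of the macrophage and dendritic genes, higher with ZsGreen.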

How the data were processed

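Whole-number counts per gene, deposited by the authors as 2 tables with 1 column per library, were used as deposited; lung columns were identical in both. Per the submitters' processing notes the build was GRCm39 and DESeq2 was used. For aligner, counter, annotation and strand setting the entry is: not given in the sources used here. Total counts were 4495260 to 17627469 per library. All libraries were used; the result of 1 list of markers of other cells is not reported here.

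Counts were tested with edgeR 4.0.16 in R 4.3.3 (quasi-likelihood, TMM scaling, robust, filterByExpr per group at its minimum count of 10), BH-adjusted over all tested genes at 0.05. The lung comparison used 8 libraries with the label date as batch term; DN3 comparisons used all 11 without one. Levels are CPM with TMM factors over all 11 libraries. The pipeline was tested on simulated data. DESeq2 1.42.0, limma 3.58.1 (voom) and other settings were alternatives. The structural score is the mean log2(CPM + 1) of the structural marker list. Members and lists were chosen with earlier results of these data known. Named in full were members past 0.5 CPM in a lung group, Trdc, every Trgc gene and the 8 highest members passing in DN3 alone. From lists, up to 4 called genes of smallest p were named, together with some that went the other way. Annotation and sequences are from GENCODE vM21 (GRCm38), so no coordinates are given; uniqueness was counted over its transcripts.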

Additional observations from a re-analysis of the deposited data

Results flagged for a closer look

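Of 17 members tested for a library far from the rest of the ZsGreen-negative group, 1 value stood out. Trgv2 measured 1.78 CPM, from 10 counts, in ZsGreen-negative replicate 2, against 0.486 to 0.516 CPM in the other 4 libraries. Chance flags about 1 in 20 such groups.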

How the results depend on the processing

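In place of 4 members called higher with ZsGreen there were 2 with a minimum count of 30, 2 in the 2024 batch alone, and 0 with the structural score as a term; leaving out 1 library gave 2 to 4, with 2 without ZsGreen-negative replicate 1 or 5 or ZsGreen-positive replicate 2 or 3. Without the low-count filter 1 member was called lower (Trgc1), and 25 and 20 members were higher in DN3 than in ZsGreen-negative and ZsGreen-positive ILC2. Members lower in DN3 than in ZsGreen-positive ILC2 numbered 1 with RLE, upper-quartile scaling or DESeq2, and 1 to 3 with a library left out (1 without ZsGreen-positive replicate 2). Against ZsGreen-negative ILC2 they numbered 1 to 2, with 2 without DN3 replicate 3 (Trgv5 and Trdv4). Trgv5 entered such fits with a library left out through its ZsGreen-positive counts, and had 0 counts in DN3 without replicate 3. At 1 CPM 7 members were transcribed in ZsGreen-negative ILC2, and without Trgc3 the Trgc2 share in DN3 was 48.76%. Directions changed for Trdv4 in lung with the structural score (−0.00084 log2 units), and for Trgj4 in DN3 against ZsGreen-positive ILC2 without the filter (−0.0327), with the replicate block (−0.0016), without ZsGreen-positive replicate 1 (−0.13) and without DN3 replicate 2 (−0.054), none of them called; leaving out 1 library gave −0.13 to 0.096 there. The causes were not tested.

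Over all genes, 319 called higher and 315 lower in lung became 605 higher with limma voom and 621 higher without the filter. They became 145 and 153 in the 2024 batch, 13 and 43 with the structural score, 149 and 147 without ZsGreen-negative replicate 5, 149 and 172 without ZsGreen-positive replicate 2, and 148 and 154 without ZsGreen-positive replicate 3. With upper-quartile scaling the all-gene median in DN3 comparisons shifted by about 0.1 log2 units. Correlations were −0.09 to 0.07 over 3 same-numbered pairs of lung libraries. ZsGreen-negative replicate 3 is of the 2024 batch and ZsGreen-positive replicate 3 of the 2025 batch. Neither these correlations nor the replicate block can therefore show whether lung libraries were paired. ZsGreen-negative replicate 3 correlated at 0.153 with ZsGreen-positive replicate 2 and at −0.138 with replicate 1. ZsGreen-negative replicate 2 correlated at 0.119 with ZsGreen-positive replicate 1. No correlation was taken for ZsGreen-negative replicates 4 and 5, and pairing by other than the replicate number was not modelled. The replicate block left 2 members called higher in lung, with 130 and 109 genes over all, and did not alter the member counts in DN3. The other 167 values of main results and 544 of single members kept direction and side of the threshold, while 27 single-member calls were lost and 2 gained. As a limit of depth, 3 counts stood for 0.170 to 0.667 CPM in a library.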

Other observations

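Genes annotated opposite the members had low levels. Gm43434, opposite Trdc, measured 0.406 ± 0.277 CPM (SD, n = 5) in ZsGreen-negative ILC2, 1.64 ± 1.04 (SD, n = 3) in ZsGreen-positive ILC2 and 3.85 ± 0.299 (SD, n = 3) in DN3, the order in which Trdc stood. Gm31887, whose exons overlap those of Trgv4 and whose span covers Trgv5, Trgv6 and Trgv7, measured 0.899 ± 0.414, 1.72 ± 1.11 and 0.794 ± 0.306 CPM, an order that Trgv5 shares and Trgv4 does not. Whether reads of these opposite-strand genes entered the members' counts was not tested.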
